A study of Rattus norvegicus with 23 samples.

Results

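The average effect of inhaled TiO2 on the lung of elderly rats was estimated from all 23 arrays of the series, 11 from exposed rats and 12 from controls, with the day of necropsy as a covariate. Members were chosen by title, and 23 of 23 arrays entered the comparison. Male F344 rats (an inbred strain), labelled as 19 months old, breathed through the nose either filtered air or a TiO2 nano-aerosol at 10 mg/m3. Exposure lasted 6 h on each of 5 days a week, over 4 weeks. The rats were killed at the end of exposure (D0: 6 controls and 5 exposed rats) or 28 days later (D28: 6 controls and 6 exposed rats). Each single-colour Agilent array held accessory-lobe RNA of 1 rat. The source label of the exposed D28 arrays gives day 0, and the titles and descriptions, which give day 28, were followed.

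Inhaled particles that settle in the alveoli are taken up by alveolar macrophages, which hold them in lysosomes, whereas those that settle in the airways are carried out by mucus and beating cilia. The alveolar wall itself is made of thin type I pneumocytes, surfactant-producing type II pneumocytes and a dense capillary endothelium. In whole-lung RNA, fewer cells of a type and less RNA per cell cannot be told apart.

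On each array 69.5% to 77.9% of the spots were well above background and none was saturated, and the 75th percentile of the processed signal ranged from 1383 to 3470. Levels are given as quantile-normalised log2 intensity. The lung genes Sftpb, Sftpc, Scgb1a1 and Ager were well above background on 23 of 23 arrays, whereas Alb, a liver gene, was so on 5. Of the defining macrophage markers, Cd68, Mrc1 and Msr1 were well above background on 23 arrays and Marco on 2. The arrays came from 5 slides, each read on its own scan day. Of these slides, 4 held both exposed and control arrays and the fifth held 1 control D28 array alone, which was also the only one read with the later software version.

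Of 23032 genes, 1488 passed an adjusted p of 0.05 in the pooled comparison (limma, Benjamini-Hochberg), which is 6.46% of the genes tested. They comprised 703 over-expressed (3.05%) and 785 under-expressed genes (3.41%). A further limit of 1.5 on the FC left 411 DEGs (1.78%), 265 over-expressed (1.15%) and 146 under-expressed (0.634%). The same threshold with the 4 groups fitted separately passed 659 genes on D0 (2.86%, and 1.79% as DEGs) and 303 on D28 (1.32%, and 0.755% as DEGs). The median SE of the log2 FC was 0.13 in the pooled comparison, 0.189 on D0 and 0.18 on D28. The pooled effect drew 47.6% of its weight from D0. Its median over all genes was -0.00 on the log2 scale.

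Pooling added 780 genes that passed on neither day (3.39% of the genes tested), 324 over-expressed (1.41%) and 456 under-expressed (1.98%). Their log2 FC ranged in size from 0.13 to 1.41 with a median of 0.37, against a median of 0.52 for the 708 genes that passed pooled and on a day, and 664 of the 780 (85.1%) stayed under a FC of 1.5. An unadjusted p under 0.05 was reached on both days by 563 of them and on exactly 1 day by 217. The signs of the 2 days were equal for all 780, which the choice of these genes on the same arrays largely fixes. The smallest adjusted p on a day ranged from 0.05 to 0.343 with a median of 0.129. Of the 780, 709 were well above background on all 23 arrays.

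**Figure D1:**
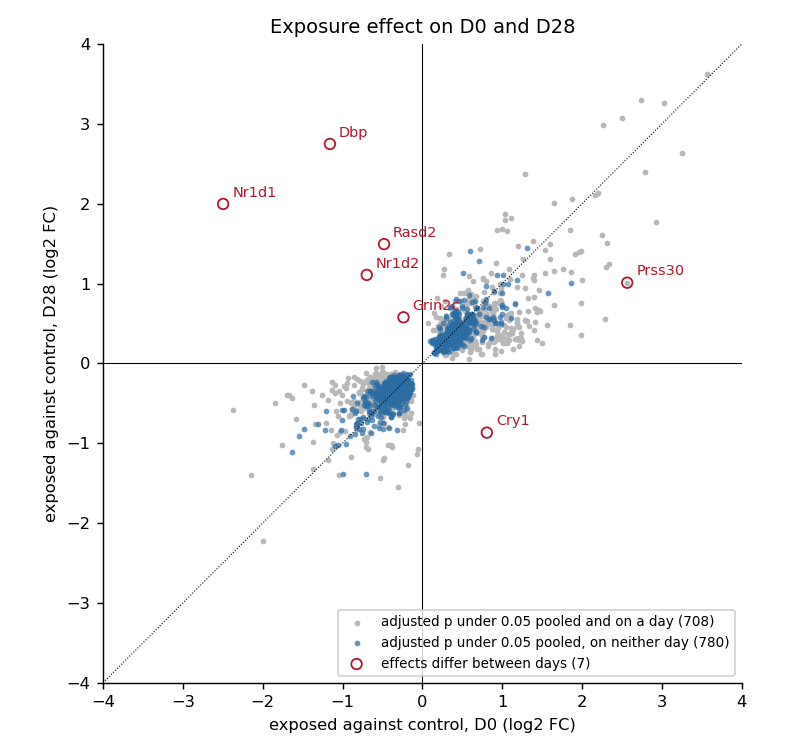
Log2 FC of exposed against control rats on D0 (x axis) and on D28 (y axis), 1 point a gene; the dotted line marks equal effects. The 780 genes that passed in the pooled comparison alone (blue) lie near the dotted line in the lower left and upper right, the 708 that passed also on a day (grey) reach farther out, and 6 of the 7 genes whose effect differed between the days (red circles) have opposite signs on the 2 days.

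Over all 23032 genes the effects of D0 and D28 had a Pearson correlation of 0.336 and a Spearman correlation of 0.332. The 2 days share no array, but they share slides, the normalisation and the estimate of the spread, and genes are not independent replicates. Where slides entered as a fixed block, 2354 genes passed the pooled comparison, 739 of the 780 among them. With slides as a random block 2316 passed, all 780 among them, and 389 of the 780 still passed on neither day. Of the 4 slides that held exposed and control arrays, 1 held no D28 control, so its effect was that of D0 alone. Another held 1 array of each group. The same slides gave the within-slide list medians below. Within these slides, the effect had the pooled sign in all 4 for 735 of the 780, as against 6287 of all 23032 genes. The 780 were chosen on these arrays, so this is a description and no separate support.

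Some pooled effects separated the arrays although each was small. Tyro3, a receptor tyrosine kinase of the family that recognises dying cells, lay between 9.56 and 9.77 on the exposed arrays (median 9.65) and between 9.27 and 9.54 on the control arrays (median 9.41). All 11 exposed arrays were above all 12 controls, with a FC of only 1.19 (log2 FC = 0.25 ± 0.046, adjusted p = 0.00187). Over all genes, 45 had every exposed array above every control (0.195%) and 11 had every exposed array below (0.0478%). Idh1, which makes cytosolic NADPH, lay between 10.40 and 11.23 on the exposed arrays (median 10.78) and between 9.76 and 10.81 on the control arrays (median 10.32). Its groups overlapped, with 4 exposed arrays above the highest control (log2 FC = 0.47 ± 0.088, adjusted p = 0.00183). Otulinl, whose name marks it as related to the deubiquitinase Otulin, rose more steeply (log2 FC = 0.61 ± 0.12, adjusted p = 0.00208), as did S100a14, an S100 protein of epithelia (log2 FC = 0.56 ± 0.11, adjusted p = 0.00243).

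Prex2, an exchange factor that activates the GTPase Rac, had the smallest p among the falls seen by pooling alone. It lay between 8.94 and 9.49 on the exposed arrays (median 9.26) and between 9.30 and 9.94 on the control arrays (median 9.59), and 7 exposed arrays were below the lowest control (log2 FC = -0.39 ± 0.073, adjusted p = 0.00164). Wfdc1, a secreted protein with a whey acidic protein domain, fell likewise, with 9 exposed arrays below every control (log2 FC = -0.54 ± 0.10, adjusted p = 0.00172). Popdc2, a membrane protein of muscle that binds cyclic AMP, had 8 exposed arrays below every control (log2 FC = -0.34 ± 0.064, adjusted p = 0.00181). Higd1b, a gene of pericytes, fell (log2 FC = -0.44 ± 0.083, adjusted p = 0.00196) and so did Anxa8, an annexin (log2 FC = -0.35 ± 0.068, adjusted p = 0.00209). None of these 5 passed on a single day, where Prex2 gave -0.37 ± 0.11 on D0 (adjusted p = 0.0669) and -0.41 ± 0.10 on D28 (adjusted p = 0.0522).

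**Figure D2:**
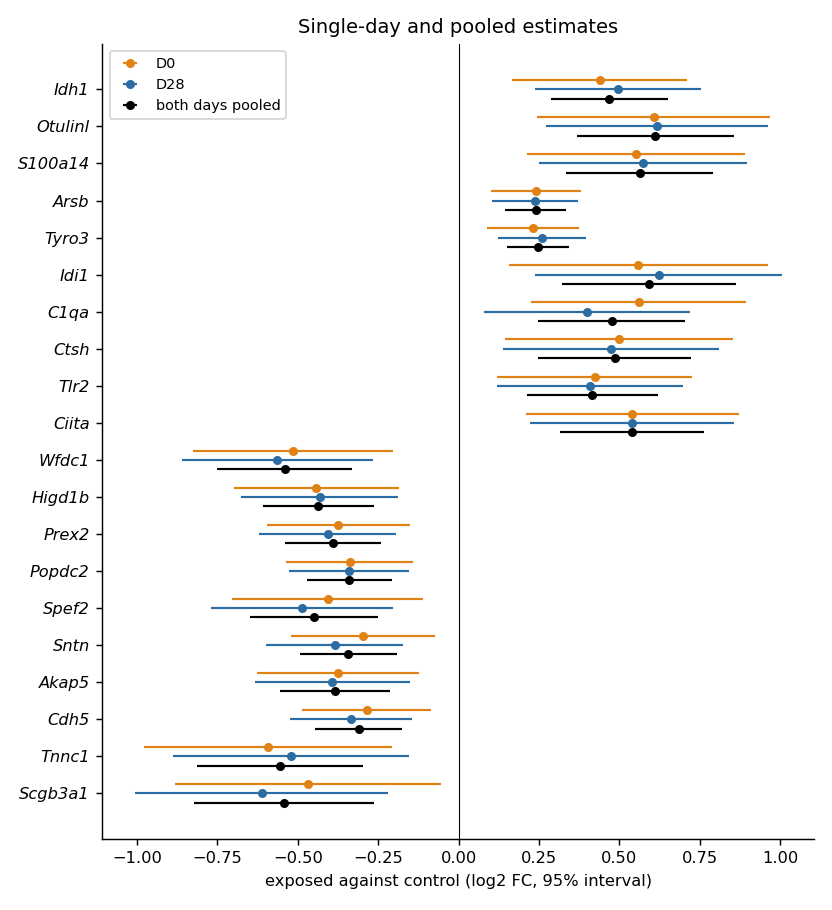
Log2 FC of exposed against control rats with its 95% interval for 20 genes that passed in the pooled comparison alone, on D0 (orange), on D28 (blue) and pooled (black). The pooled intervals are the narrowest and lie away from 0, and the D0 and D28 estimates of each gene lie on the same side of 0.

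The largest rises that neither day resolved, among genes well above background on every array, included an inhibitory complement receptor, a chemokine, a growth factor and genes of dividing cells. Vsig4, the complement receptor that tissue-resident macrophages carry, lay between 6.95 and 8.94 on the exposed arrays (median 7.82) and between 5.35 and 7.98 on the control arrays (median 7.17). On each day the exposed and control arrays overlapped, and the log2 FC was 1.01 on D0 and 1.11 on D28 (log2 FC = 1.06 ± 0.24, adjusted p = 0.00857 pooled). Cxcl2, a neutrophil chemokine, lay between 9.19 and 11.50 on the exposed arrays (median 10.17) and between 9.02 and 10.01 on the control arrays (median 9.39), and 6 exposed arrays were above the highest control (log2 FC = 0.95 ± 0.23, adjusted p = 0.0134). Areg, an epidermal growth factor receptor ligand, rose (log2 FC = 0.74 ± 0.20, adjusted p = 0.0219), as did Slc7a3, a transporter of cationic amino acids (log2 FC = 0.76 ± 0.21, adjusted p = 0.0276). The call of Slc7a3 was lost without D0 exposed replicate 2 or 3, D28 control replicate 5 or D28 exposed replicate 1. Hist1h1b (linker histone), Melk, Cdc6, Ska3 and Kifc1 all belong to chromatin or the cell cycle, with FC from 1.62 to 1.77.

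The 10 largest falls of the same kind were more mixed. Serpinb10, a serine protease inhibitor, lay between 7.74 and 9.66 on the exposed arrays (median 9.19) and between 9.08 and 10.47 on the control arrays (median 9.90), with 5 exposed arrays below every control (log2 FC = -0.86 ± 0.22, adjusted p = 0.0195). Kcnj3, a potassium channel of atrial muscle and neurons (log2 FC = -0.82 ± 0.19, adjusted p = 0.00957), and Popdc3, another cyclic AMP-binding muscle protein (log2 FC = -0.79 ± 0.19, adjusted p = 0.0132), fell by similar amounts. Ralyl (log2 FC = -0.75 ± 0.17, adjusted p = 0.00743) and Caln1 (log2 FC = -0.69 ± 0.16, adjusted p = 0.00914), both better known from brain, fell too. Fbp1, a rate-limiting enzyme of gluconeogenesis, lay between 6.34 and 7.03 on the exposed arrays (median 6.72) and between 6.08 and 8.29 on the control arrays (median 7.51). No exposed array was below the lowest control, although 11 controls were above the lowest exposed array (log2 FC = -0.73 ± 0.19, adjusted p = 0.0203). Fgfbp1, a carrier of fibroblast growth factors (log2 FC = -0.71 ± 0.19, adjusted p = 0.0261), Acer2, a Golgi ceramidase (log2 FC = -0.64 ± 0.13, adjusted p = 0.00319), and Clic6, a chloride channel protein (log2 FC = -0.64 ± 0.15, adjusted p = 0.00826), also fell. Without D0 exposed replicate 4 the call of Fgfbp1 was lost, as was that of Kifc1 above. The tenth, Kif4a, is described with the cell cycle genes. The sizes of dim genes depended on the background correction. With normexp, the log2 FC of Slc7a3, Melk, Cdc6, Ska3 and Kifc1 were 0.26 to 0.46 and those of Kcnj3, Popdc3, Ralyl, Caln1, Clic6 and Kif4a -0.51 to -0.22, each still past the threshold.

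At the other end lay the smallest effects that passed, again among genes well above background on every array. Lgals8, a galectin, gave log2 FC = 0.13 ± 0.041, adjusted p = 0.0487, Plp2 gave log2 FC = 0.14 ± 0.042, adjusted p = 0.0495 and Nlrx1, a mitochondrial relative of the innate sensors, gave log2 FC = 0.15 ± 0.042, adjusted p = 0.0373. Mapk8ip1, a scaffold of the JNK pathway, lay between 11.65 and 12.004 on the exposed arrays (median 11.91) and between 11.96 and 12.13 on the control arrays (median 12.01), and 9 exposed arrays were below every control with a FC of only 0.908 (adjusted p = 0.0479). Hmgn1, a nucleosome-binding protein, and Sdc2, a cell-surface proteoglycan, gave log2 FC of -0.16 ± 0.045 and -0.17 ± 0.05. These 6 calls were the least stable: leaving out single arrays ended that of Hmgn1 in 6 of 23 cases, that of Mapk8ip1 in 19 and the others in 12 to 18, and taking the brightest probe of a gene ended those of Lgals8 and Sdc2.

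Cilium genes were the clearest group whose members seldom passed on a single day. Of 49 genes of motile cilia measured, 16 fell and none rose in the pooled comparison, and 14 of the 16 passed on neither day. Their median log2 FC was -0.28, against -0.00 over all genes, and 1 of the 49 had an effect above 0. On D0 and on D28 alone, 1 of the 49 passed. The median of the list was nonetheless -0.25 on D0 and -0.31 on D28, so each day showed the fall without resolving its genes. A share of 32.7% was called, against 6.46% of all genes.

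Spef2, a component of the central apparatus of the axoneme, lay between 6.97 and 7.78 on the exposed arrays (median 7.56) and between 7.68 and 8.27 on the control arrays (median 7.88). On 9 exposed arrays it was below every control, with a pooled log2 FC of -0.45 ± 0.097 (adjusted p = 0.00528). On the single days it was -0.41 ± 0.14 on D0 (adjusted p = 0.163) and -0.49 ± 0.14 on D28 (adjusted p = 0.0843). Sntn, a protein of the ciliary tip, lay between 11.47 and 12.04 on the exposed arrays (median 11.78) and between 11.93 and 12.42 on the control arrays (median 12.15). Again 9 exposed arrays were below every control (log2 FC = -0.34 ± 0.073, adjusted p = 0.00487). Tppp3, a microtubule-bundling protein abundant in ciliated cells (log2 FC = -0.35 ± 0.076, adjusted p = 0.0058), and Ttc25, which docks outer dynein arms (log2 FC = -0.34 ± 0.074, adjusted p = 0.0059), fell by nearly the same amount. Tekt4, a tektin of the axonemal doublets, fell (log2 FC = -0.30 ± 0.081, adjusted p = 0.0235). The others were Cfap100, Rsph1, Dnali1, Lrrc6, Ccdc39, Rsph9, Dnah7, Cfap52 and Rsph4a, which cover dynein arms, their assembly, radial spokes and the ruler complexes of the axoneme. Foxj1, the master transcription factor of motile ciliogenesis, did not pass (log2 FC = -0.21 ± 0.074, adjusted p = 0.0946), nor did the dynein heavy chain Dnah5 (-0.39 ± 0.18, adjusted p = 0.251).

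The mean log2 level of the 49 genes was 7.47 to 8.0 on the exposed arrays (median 7.81) and 7.79 to 8.28 on the controls (median 8.05). Within the 4 slides that held both groups the median log2 FC was -0.34, -0.49, -0.11 and -0.19. The part of airway content in the cilium result was not tested. The 2 club cell genes, which mark the same airways, went in opposite directions and neither passed. Scgb1a1 had a log2 FC of -0.17 ± 0.087 (adjusted p = 0.346) and Scgb3a2 one of 0.29 ± 0.11 (adjusted p = 0.132).

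The promoters of 3 cilium genes that passed in the pooled comparison alone are shown because they hold the letters GTTGCC. These letters are the conserved core of the X-box, which RFX factors bind at many cilium genes. Each runs from 250 bases before to 50 after the start (RefSeq, GRCr8), 5′ to 3′ on the strand of the gene, with the match on either strand in capitals. The Spef2 promoter lies on the minus strand at chr2:60421801-60422100, that of Sntn on the minus strand at chr15:13956041-13956340 and that of Tekt4 on the plus strand at chr10:14992034-14992333.
Spef2: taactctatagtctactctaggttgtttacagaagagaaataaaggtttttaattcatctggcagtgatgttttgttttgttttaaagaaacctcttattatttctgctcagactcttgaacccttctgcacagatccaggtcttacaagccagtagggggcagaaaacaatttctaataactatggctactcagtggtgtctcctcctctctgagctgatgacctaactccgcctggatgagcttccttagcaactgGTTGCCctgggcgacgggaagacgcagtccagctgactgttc
Sntn: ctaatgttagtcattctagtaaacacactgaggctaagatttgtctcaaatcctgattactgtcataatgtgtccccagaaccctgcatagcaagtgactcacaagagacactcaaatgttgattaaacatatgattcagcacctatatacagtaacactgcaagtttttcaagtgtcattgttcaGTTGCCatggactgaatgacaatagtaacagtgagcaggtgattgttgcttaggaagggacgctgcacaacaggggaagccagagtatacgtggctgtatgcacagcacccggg
Tekt4: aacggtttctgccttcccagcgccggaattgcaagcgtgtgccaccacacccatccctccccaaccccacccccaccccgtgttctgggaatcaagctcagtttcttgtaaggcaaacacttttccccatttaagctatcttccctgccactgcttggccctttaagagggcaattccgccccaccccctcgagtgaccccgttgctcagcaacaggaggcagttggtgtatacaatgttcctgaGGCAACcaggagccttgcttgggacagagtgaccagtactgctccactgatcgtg
Of the 34 cilium genes with a promoter of 300 bases in the table, 15 held GTTGCC on a strand (44.1%), as against 3343 of 27457 promoters (12.2%). The 9 called genes among them held it in 4 cases. A match is a description of the letters and not a binding site.

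Secretory cells of the airway, which share the epithelium with the ciliated cells, moved in both directions. Of 26 genes, 5 rose and 3 fell (30.8%, against 6.46% of all genes). Muc20 (log2 FC = 0.88 ± 0.19, adjusted p = 0.00562) and Muc4 (log2 FC = 1.21 ± 0.30, adjusted p = 0.0154), both membrane mucins, were resolved only by pooling. Muc4 was well above background on 9 of 11 exposed and 5 of 12 control arrays, and with normexp the log2 FC were 0.31 for Muc4 and 0.32 for Muc20. Spdef, the transcription factor that drives goblet cell differentiation, lay between 9.84 and 10.60 on the exposed arrays (median 10.23) and between 9.63 and 10.15 on the control arrays (median 9.82), with 8 exposed arrays above the highest control (log2 FC = 0.37 ± 0.082, adjusted p = 0.00727). Scgb3a1, a secretoglobin of secretory cells, fell (log2 FC = -0.54 ± 0.13, adjusted p = 0.0146). The median of the list was -0.06 on the log2 scale, and 0.09 over the 21 genes left by a filter on spots well above background. Leaving out D28 control replicate 1 or D28 exposed replicate 1 or 3 also put it above 0, at 0.01, 0.00 and 0.01.

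Type I pneumocyte genes fell together. Of 24 measured, 11 fell and none rose (45.8%, against 6.46% of all genes). Their median log2 FC was -0.26, and 2 of the 24 had an effect above 0. Ager, the receptor for advanced glycation end products and the classical type I marker, lay between 16.37 and 16.90 on the exposed arrays (median 16.63) and between 16.63 and 17.15 on the control arrays (median 16.90). The fall was small (log2 FC = -0.26 ± 0.077, adjusted p = 0.0463), passed on neither day, and was lost in 17 of 23 cases of leaving out 1 array. Akap5, an anchor of protein kinase A, fell more clearly, with 6 exposed arrays below every control (log2 FC = -0.38 ± 0.082, adjusted p = 0.00494). Sec14l3, a lipid transfer protein of lung epithelium (log2 FC = -0.35 ± 0.077, adjusted p = 0.00635), and Pdpn, podoplanin (log2 FC = -0.25 ± 0.071, adjusted p = 0.0343), were also resolved only by pooling, and the call of Pdpn was lost in 12 of 23 such cases and with its brightest probe. The other 7 passed also on a day and included the caveolins Cav1 and Cav2 and the water channel Aqp5. Within the 4 slides the list's median lay between -0.36 and -0.19.

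Type II pneumocyte genes leaned the other way. Of 24 measured, 6 rose and 1 fell (29.2%, against 6.46% of all genes). The fall was Ager, which both pneumocyte lists held. Ctsh, the cathepsin that processes surfactant protein C, lay between 14.02 and 15.02 on the exposed arrays (median 14.40) and between 13.47 and 14.29 on the control arrays (median 14.01), and 9 exposed arrays were above the highest control (log2 FC = 0.49 ± 0.11, adjusted p = 0.0103). Napsa, napsin A, which also processes surfactant protein B, lay between 15.68 and 16.24 on the exposed arrays (median 15.93) and between 15.17 and 15.74 on the control arrays (median 15.67), again with 9 exposed arrays above every control (log2 FC = 0.30 ± 0.074, adjusted p = 0.0151). Sftpa1, a surfactant collectin, rose (log2 FC = 0.37 ± 0.10, adjusted p = 0.0306), a call that was lost without any 1 of 9 arrays and with its brightest probe. The defining markers did not pass: Sftpc had a log2 FC of -0.03 ± 0.14 (adjusted p = 0.956), Sftpb 0.06 ± 0.042 (adjusted p = 0.523) and Abca3 0.30 ± 0.10 (adjusted p = 0.0919).

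Endothelial genes fell by small and even amounts. Of 40 measured, 11 fell and 1 rose (30%, against 6.46% of all genes). The rise was the adhesion molecule Sele, which inflamed endothelium puts on its surface. The median log2 FC was -0.24, and 6 falls were seen only by pooling. Cdh5, the cadherin of endothelial junctions, lay between 10.19 and 10.70 on the exposed arrays (median 10.50) and between 10.51 and 11.22 on the control arrays (median 10.75), with 6 exposed arrays below every control (log2 FC = -0.31 ± 0.065, adjusted p = 0.00415). Flt1, a receptor of vascular endothelial growth factor, lay between 7.96 and 8.59 on the exposed arrays (median 8.34) and between 8.36 and 8.89 on the control arrays (median 8.70), with 6 exposed arrays below every control (log2 FC = -0.34 ± 0.075, adjusted p = 0.00648). Apln, the peptide ligand apelin (log2 FC = -0.41 ± 0.097, adjusted p = 0.0113), Gja5, a gap junction protein of arteries (log2 FC = -0.32 ± 0.085, adjusted p = 0.0239), and Egfl7 and Plvap completed this group. The call of Gja5 was lost with its brightest probe. Pecam1, another defining marker, did not pass (-0.25 ± 0.13, adjusted p = 0.324). Within the slides the median of the list was between -0.31 and -0.12.

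Smooth muscle and elastic fibre genes fell in 6 of 37 cases and rose in 1 (18.9%, against 6.46% of all genes). Smtn, smoothelin, was the 1 fall seen only by pooling (log2 FC = -0.25 ± 0.055, adjusted p = 0.00652). The defining smooth muscle markers did not pass: Myh11 gave -0.28 ± 0.10 (adjusted p = 0.107) and Acta2 0.01 ± 0.092 (adjusted p = 0.987).

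Markers of striated muscle, which the sleeves of pulmonary veins and the neighbouring heart can bring into a lung sample, were lower in exposed rats. Of 31 measured, 8 fell and none rose (25.8%, against 6.46% of all genes), with a median log2 FC of -0.33. Myl7, the atrial myosin light chain, lay between 8.68 and 9.29 on the exposed arrays (median 8.94) and between 9.19 and 10.000 on the control arrays (median 9.61), and 9 exposed arrays were below every control (log2 FC = -0.62 ± 0.087, adjusted p = 0.000112). Casq2, which stores calcium in the cardiac reticulum (log2 FC = -0.46 ± 0.097, adjusted p = 0.00479), Tnnc1, slow and cardiac troponin C (log2 FC = -0.56 ± 0.13, adjusted p = 0.00744), and Myl4, another atrial light chain (log2 FC = -0.40 ± 0.11, adjusted p = 0.0352), were seen only by pooling, and the call of Myl4 was lost in 12 of 23 cases of leaving out 1 array. The mean log2 level of the list was 6.44 to 7.94 on the exposed arrays (median 6.70) and 6.71 to 8.31 on the controls (median 6.99). The highest D0 control, at 8.31, lay far above its group median of 7.02. So did the highest exposed D28 array, at 7.94 against a group median of 6.81. As log2 of summed intensity, the level was 13.5 to 14.4 on the exposed arrays and 13.9 to 14.7 on the controls. Kcnj3, Popdc2 and Popdc3, named above, are also expressed in the heart, and the part of muscle content in their falls was not tested.

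**Figure D3:**
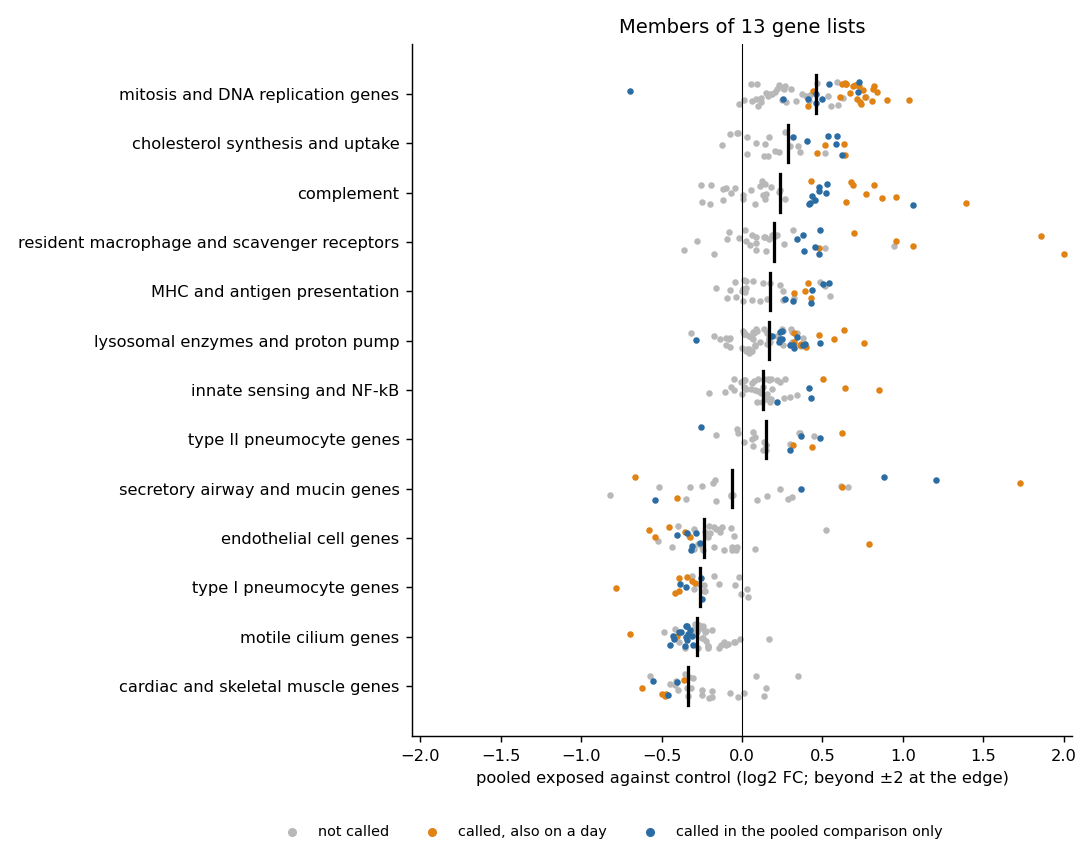
Pooled log2 FC of exposed against control rats for the members of 13 gene lists, 1 point a gene, with the median of each list as a black bar; blue points passed in the pooled comparison alone, orange points also on a day, and grey points did not pass. Cilium, type I pneumocyte, endothelial and muscle genes lie mostly below 0, and genes of the cell cycle, cholesterol synthesis, complement and lysosomes mostly above it.

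Genes of macrophages rose. Of 36 genes of resident macrophages and scavenger receptors, 12 rose and none fell (33.3%, against 6.46% of all genes). Their median log2 FC was 0.20, and 6 rises were seen only by pooling. C1qa, the A chain of complement C1q, which lung macrophages make, lay between 11.38 and 12.56 on the exposed arrays (median 11.60) and between 10.95 and 11.65 on the control arrays (median 11.17), and 1 control array was above the lowest exposed array (log2 FC = 0.48 ± 0.11, adjusted p = 0.00886). Fcgr2b, the inhibitory Fc receptor, lay between 11.72 and 12.53 on the exposed arrays (median 12.05) and between 11.19 and 12.16 on the control arrays (median 11.70) (log2 FC = 0.48 ± 0.12, adjusted p = 0.012). Arg1, arginase, rose by less (log2 FC = 0.34 ± 0.079, adjusted p = 0.00871), and Clec5a and Clec10a also passed. Cd68, which every macrophage holds in its lysosomes, passed pooled and on a day (log2 FC = 0.48 ± 0.068, adjusted p = 0.000128). Mrc1 and Msr1 did not pass, with log2 FC of 0.09 ± 0.12 (adjusted p = 0.833) and 0.21 ± 0.11 (adjusted p = 0.378). Nor did Marco (0.94 ± 0.29, adjusted p = 0.0512), which was well above background on only 2 exposed arrays and no control.

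Gpnmb, a glycoprotein of lipid-laden and lysosome-rich macrophages, was among the firmest of these small rises. It lay between 14.61 and 15.32 on the exposed arrays (median 15.02) and between 13.96 and 14.84 on the control arrays (median 14.46), and 9 exposed arrays were above the highest control (log2 FC = 0.51 ± 0.10, adjusted p = 0.00276). Hmox1, heme oxygenase, rose (log2 FC = 0.62 ± 0.14, adjusted p = 0.00796), and so did the integrin Itgax, or Cd11c (log2 FC = 0.53 ± 0.15, adjusted p = 0.0279), and the tetraspanin Cd63 (log2 FC = 0.25 ± 0.069, adjusted p = 0.0301). In all, 8 of 32 genes of this kind rose and 1 fell (28.1%, against 6.46% of all genes). The call of Itgax was lost without D0 exposed replicate 4 or D28 exposed replicate 6, and that of Cd63 without any 1 of 6 arrays.

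Lysosomal genes rose broadly and by little. Of 71 measured, 22 rose and 1 fell (32.4%, against 6.46% of all genes), 13 of the rises being seen only by pooling. An effect above 0 was found for 62 of the 71. The median log2 FC was 0.17, and within the 4 slides it was 0.17, 0.15, 0.16 and 0.20. Arsb, which removes sulfate from dermatan sulfate, lay between 11.72 and 11.97 on the exposed arrays (median 11.89) and between 11.54 and 11.78 on the control arrays (median 11.64). Its 2 days gave the same size of effect, 0.24 ± 0.067 on D0 (adjusted p = 0.0586) and 0.24 ± 0.064 on D28 (adjusted p = 0.0726), and 9 exposed arrays were above every control (log2 FC = 0.24 ± 0.045, adjusted p = 0.00196 pooled). Glb1, the lysosomal beta-galactosidase (log2 FC = 0.25 ± 0.052, adjusted p = 0.00403), Acp5, tartrate-resistant acid phosphatase (log2 FC = 0.38 ± 0.082, adjusted p = 0.00545), and Atp6v1b2, a subunit of the proton pump that acidifies the lysosome (log2 FC = 0.39 ± 0.086, adjusted p = 0.0059), followed. Ctsd, the aspartic protease cathepsin D, lay between 17.05 and 17.40 on the exposed arrays (median 17.24) and between 16.57 and 17.23 on the control arrays (median 17.05) (log2 FC = 0.23 ± 0.063, adjusted p = 0.0275). The further rises were Ctsb, Fuca1, Gaa, Ctsa, Cd63 and Lgmn, together with Ctsh, described above, and Gm2a, the activator of ganglioside breakdown. The mean log2 level of the 71 genes was 11.06 to 11.38 on the exposed arrays and 10.84 to 11.17 on the controls.

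The promoter of Ctsd is shown as the one called lysosomal gene whose 300 bases held TCACGTGA, the palindromic core of the CLEAR element that the lysosomal regulator TFEB binds. It lies on the minus strand at chr1:206968772-206969071 (RefSeq, GRCr8) and is printed 5′ to 3′ on the strand of the gene, with the match in capitals.
Ctsd: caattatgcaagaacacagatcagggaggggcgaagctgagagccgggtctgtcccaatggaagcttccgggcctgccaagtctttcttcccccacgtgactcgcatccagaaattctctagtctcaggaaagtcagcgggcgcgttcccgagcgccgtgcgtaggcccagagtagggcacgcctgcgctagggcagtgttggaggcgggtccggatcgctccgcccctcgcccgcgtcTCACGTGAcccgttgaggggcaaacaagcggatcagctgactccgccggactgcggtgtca
Of 55 lysosomal genes with such a promoter, 7 held these letters (12.7%), as against 238 of 27457 promoters (0.867%). Among the 18 called genes it was 1.

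Genes that make cholesterol rose as a set of neighbouring steps. Of 28 genes of synthesis and uptake, 10 rose and none fell (35.7%, against 6.46% of all genes), with a median log2 FC of 0.28. Those seen only by pooling ran along the pathway. Mvd, which makes isopentenyl diphosphate, lay between 9.75 and 10.74 on the exposed arrays (median 9.94) and between 9.31 and 9.91 on the control arrays (median 9.70) (log2 FC = 0.40 ± 0.10, adjusted p = 0.0188). Idi1, which isomerises it, lay between 10.57 and 11.70 on the exposed arrays (median 11.05) and between 9.88 and 11.07 on the control arrays (median 10.54), with 5 exposed arrays above the highest control (log2 FC = 0.59 ± 0.13, adjusted p = 0.0064). Sqle, squalene epoxidase (log2 FC = 0.53 ± 0.14, adjusted p = 0.0174), Lss, which closes the sterol rings, and Cyp51, the lanosterol demethylase (log2 FC = 0.59 ± 0.14, adjusted p = 0.0103), came next. Cyp51 lay between 10.69 and 11.96 on the exposed arrays (median 11.17) and between 10.02 and 11.06 on the control arrays (median 10.84). Hmgcs1, Msmo1 and Dhcr7 passed also on a day.

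These genes varied within groups. D0 control replicate 6 lay apart from the other 5 controls of that day at the low end for Idi1, Cyp51 and Sqle, and D28 exposed replicate 4 at the high end of its group for Cyp51, Sqle and Mvd. The median of the list within the 4 slides was 0.39, 0.07, 0.13 and 0.49. The sterol response letters TCACNCCAC were in none of the 21 promoters of the list with 300 bases and in 310 of 27457 promoters (1.13%), which says only that these letters are not in these windows. Fatty acid genes showed no common direction, with 2 of 37 rising and 3 falling (13.5%, against 6.46% of all genes). Elovl1, which makes very long saturated chains, rose (log2 FC = 0.26 ± 0.061, adjusted p = 0.00906), as did Gpam, which starts glycerolipid synthesis (log2 FC = 0.32 ± 0.086, adjusted p = 0.0243), a call lost without D0 exposed replicate 1 or 2. Elovl4, of the same family as Elovl1, fell (log2 FC = -0.99 ± 0.23, adjusted p = 0.00833), but was well above background on only 1 exposed and 7 control arrays, and gave -0.14 with normexp. Scd, the stearoyl-CoA desaturase and one of the 3 largest falls of the comparison, has near-identical paralogs on which its probe may also report (log2 FC = -1.76 ± 0.26, adjusted p = 0.000213).

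Complement genes rose with their inhibitors and receptors. Of 42 genes, 18 rose and none fell (42.9%, against 6.46% of all genes). Their median log2 FC was 0.23, and 9 rises were seen only by pooling. Serping1, the C1 inhibitor, lay between 13.78 and 14.51 on the exposed arrays (median 14.15) and between 13.39 and 14.13 on the control arrays (median 13.81), with 7 exposed arrays above every control (log2 FC = 0.42 ± 0.098, adjusted p = 0.00871). C2, the serine protease of the classical pathway, lay between 11.73 and 12.50 on the exposed arrays (median 11.98) and between 10.71 and 11.93 on the control arrays (median 11.63), also with 7 exposed arrays above every control (log2 FC = 0.48 ± 0.11, adjusted p = 0.00935). C3ar1, the receptor of the C3a fragment, C6, of the membrane attack complex, and C4a and C4b passed as well. The last 2 are near-identical copies whose probes cannot be assumed to tell them apart. C3, Cfb and Cfi, of the central and alternative steps, passed also on a day. The mean log2 level of the 42 genes was 9.41 to 9.73 on the exposed arrays and 8.99 to 9.32 on the controls, without overlap. This was not particular to complement. The acute-phase list (6.96 to 7.59 exposed, 6.36 to 6.86 control) and the resident macrophage list (8.88 to 9.17 exposed, 8.47 to 8.83 control) did not overlap either. The complement and resident macrophage lists hold C1qa and Itgam in common, so they are not separate results.

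Antigen presentation rose by a similar small amount. Of 35 genes, 10 rose and none fell (28.6%, against 6.46% of all genes), with a median log2 FC of 0.17. Ciita, the master regulator of class II genes, lay between 8.26 and 9.52 on the exposed arrays (median 8.66) and between 7.73 and 8.33 on the control arrays (median 8.26), and 10 exposed arrays were above every control (log2 FC = 0.54 ± 0.11, adjusted p = 0.00289). RT1-DMa and RT1-DMb, which load peptides on class II molecules, rose (log2 FC = 0.50 ± 0.14, adjusted p = 0.0253, and log2 FC = 0.43 ± 0.12, adjusted p = 0.0349), as did RT1-Db1. The RT1 genes are polymorphic and closely related, so their probes may report on more than 1 of them. Cd83, a maturation marker of dendritic cells, rose (log2 FC = 0.27 ± 0.063, adjusted p = 0.0111). Cd74, the invariant chain, passed also on a day. Without D0 exposed replicate 4 only 6 of the 35 passed and the call of RT1-DMa was lost, and the call of RT1-DMb was lost without any 1 of 9 arrays.

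Among 36 chemokine ligands 8 rose and 1 fell, 25% of the list against 6.46% of all genes. Most of the rises passed also on a day, among them Ccl1, a T cell attractant (log2 FC = 1.89 ± 0.27, adjusted p = 0.000124), and the monocyte attractants Ccl2 (log2 FC = 1.18 ± 0.21, adjusted p = 0.00093) and Ccl12 (log2 FC = 1.62 ± 0.33, adjusted p = 0.00307), with Ccl7. The log2 FC of Ccl1, which was well above background on 9 of 12 controls, was 0.70 with normexp. Among those added by pooling, Cxcl17, a chemokine of mucosal epithelium, lay between 13.87 and 14.83 on the exposed arrays (median 14.28) and between 13.70 and 14.26 on the control arrays (median 13.94) (log2 FC = 0.43 ± 0.096, adjusted p = 0.00727), whereas Ccl6, a macrophage chemokine, lay between 12.97 and 13.71 on the exposed arrays (median 13.40) and between 13.36 and 14.07 on the control arrays (median 13.77), with 4 exposed arrays below every control (log2 FC = -0.33 ± 0.084, adjusted p = 0.0162). Of 45 genes of innate sensing and NF-kB, 6 rose and none fell (13.3%). Tlr2, a receptor of bacterial lipoproteins (log2 FC = 0.42 ± 0.099, adjusted p = 0.0106), Nfkbie, an inhibitor of NF-kB (log2 FC = 0.43 ± 0.11, adjusted p = 0.0166), and Casp4, a caspase that senses lipopolysaccharide (log2 FC = 0.22 ± 0.059, adjusted p = 0.0232), were the 3 seen only by pooling. Il1rn, the natural antagonist of the interleukin-1 receptor, lay between 12.17 and 13.01 on the exposed arrays (median 12.66) and between 11.69 and 12.69 on the control arrays (median 11.94), and was the only one of 50 receptor and receptor-antagonist genes to pass (log2 FC = 0.57 ± 0.12, adjusted p = 0.00359). That is 2% of the list, below the 6.46% of all genes. Itih3, an acute-phase protein that binds hyaluronan, rose in the mean of its 2 probes (log2 FC = 0.62 ± 0.13, adjusted p = 0.00409), which disagreed, with log2 FC of 1.13 and 0.12. With the brighter probe alone the call was lost. Ttr, the thyroxine carrier that falls in the acute phase, fell (log2 FC = -0.81 ± 0.19, adjusted p = 0.00829), but was well above background on only 5 exposed and 10 control arrays, and gave -0.12 with normexp.

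Of 39 T and NK cell genes 2 rose (5.13% of the list, against 6.46% of all genes), and Icos, a costimulatory receptor of activated T cells, was the one seen only by pooling (log2 FC = 0.45 ± 0.10, adjusted p = 0.00823). The defining markers Cd3d, Cd3e and Cd3g had log2 FC of 0.06, 0.11 and 0.03, none of which passed. Of 28 B cell genes 1 rose and 2 fell (10.7%), among them Bank1, a B cell scaffold (log2 FC = -0.34 ± 0.09, adjusted p = 0.0216). The call of Bank1 was lost with its brightest probe. Of 29 neutrophil genes 4 rose and 1 fell (17.2%), but their median log2 FC was -0.08 and only 13 of the 29 had an effect above 0. The rises were Cd177, a neutrophil surface protein (log2 FC = 1.08 ± 0.18, adjusted p = 0.000665), Ncf1, of the phagocyte oxidase (log2 FC = 0.49 ± 0.081, adjusted p = 0.000602), Lcn2, lipocalin, which epithelium also makes (log2 FC = 1.17 ± 0.21, adjusted p = 0.00122), and Itgam. Ngp, a neutrophil granule protein, fell (log2 FC = -0.79 ± 0.23, adjusted p = 0.0416), but was well above background on 1 exposed and 9 control arrays, and the call was lost with normexp and in the deposited table. The neutrophil calprotectin genes S100a8 and S100a9 did not pass (log2 FC = 0.15 ± 0.27, adjusted p = 0.879, and 0.62 ± 0.25, adjusted p = 0.18). Nor did the other 2 defining markers, Csf3r (-0.14 ± 0.24, adjusted p = 0.864) and Mpo (0.07 ± 0.33, adjusted p = 0.961). Mpo was well above background on only 3 exposed and 3 control arrays. Itgam, or Cd11b, which neutrophils share with macrophages, separated all 11 exposed from all 12 control arrays (log2 FC = 0.96 ± 0.084, adjusted p = 6.03e-07).

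Cell cycle genes rose, and D0 already showed most of them. Of 65 genes of mitosis and DNA replication, 30 rose and 1 fell (47.7%, against 6.46% of all genes). The median log2 FC was 0.46 pooled, 0.58 on D0 and 0.29 on D28. On D0 24 passed and on D28 2. Pooling added 8 rises, which were mostly of DNA replication. Cdc6, which loads the replicative helicase, lay between 4.98 and 5.71 on the exposed arrays (median 5.48) and between 4.02 and 5.57 on the control arrays (median 4.62) (log2 FC = 0.73 ± 0.15, adjusted p = 0.00365). Cdc45, a part of that helicase (log2 FC = 0.50 ± 0.11, adjusted p = 0.00727), and Lig1, the ligase of lagging-strand synthesis (log2 FC = 0.26 ± 0.057, adjusted p = 0.00727), rose, as did Gins1, Mcm5, Ccne2 and Prc1. The 1 fall was Kif4a, a chromosome kinesin, which lay between 5.27 and 6.36 on the exposed arrays (median 5.90) and between 6.13 and 7.22 on the control arrays (median 6.45). It was measured by 1 probe, and 8 exposed arrays were below every control (log2 FC = -0.70 ± 0.14, adjusted p = 0.0034).

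**Figure D4:**
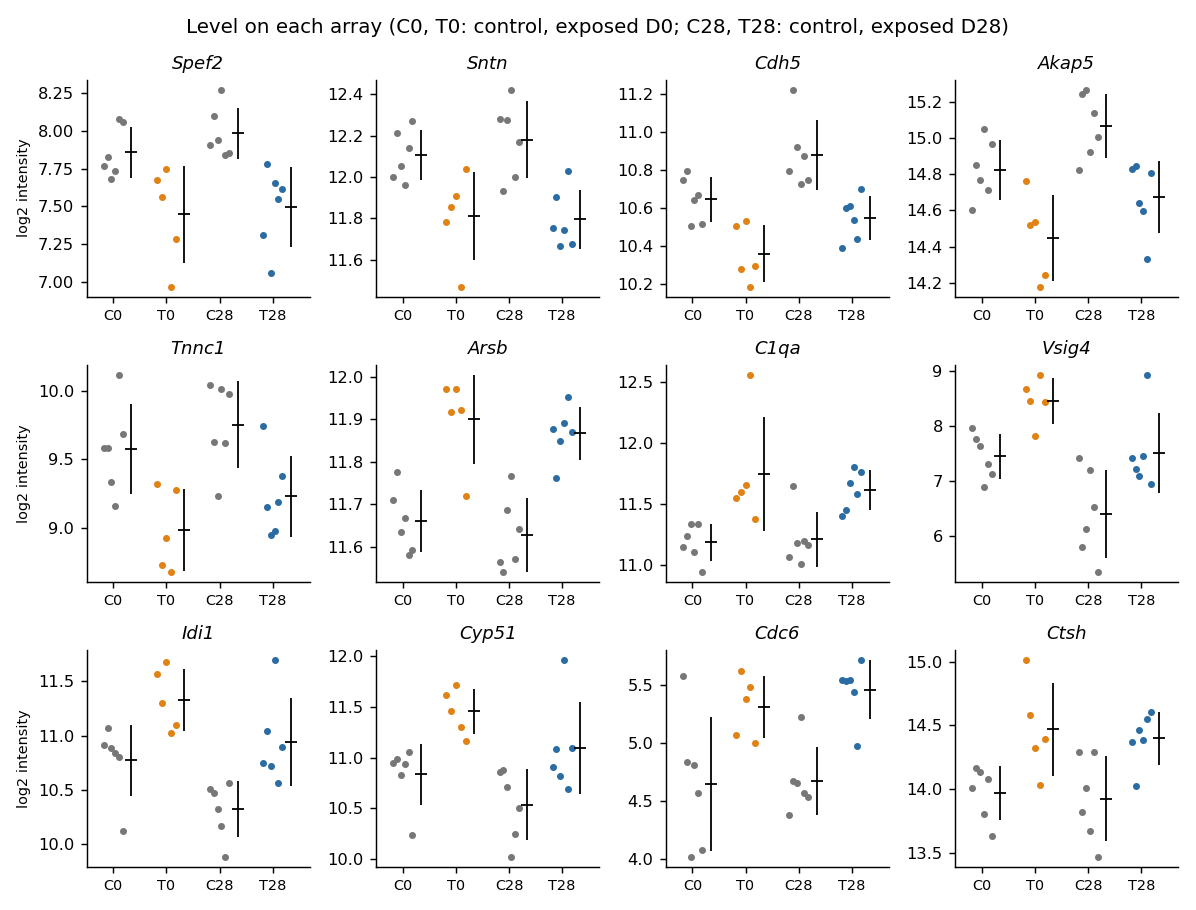
Quantile-normalised log2 intensity on each array for 12 genes that passed in the pooled comparison alone, with the mean and SD of each group as a black bar beside its points (6 controls and 5 exposed rats on D0, 6 and 6 on D28). The upper row and Tnnc1 fall, the other genes rise, and the exposed and control points of Vsig4 overlap on each day.

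Among 53 genes of small GTPases, actin and phagocytosis, 8 rose and 2 fell (18.9%, against 6.46% of all genes). Arpc3, a subunit of the actin-branching Arp2/3 complex, rose (log2 FC = 0.22 ± 0.058, adjusted p = 0.0216), as did Rab32 and Rac2. Gsn, the actin-severing gelsolin, lay between 15.45 and 16.05 on the exposed arrays (median 15.69) and between 15.77 and 16.43 on the control arrays (median 15.997), with 7 exposed arrays below every control (log2 FC = -0.34 ± 0.074, adjusted p = 0.00622), and Vav3, a guanine nucleotide exchange factor, fell as well (log2 FC = -0.29 ± 0.07, adjusted p = 0.0123).

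Redox genes were split. Of 50 antioxidant and glutathione genes, 6 rose and 5 fell (22%, against 6.46% of all genes), and their median was 0.01 on the log2 scale. Prdx5, a peroxiredoxin, lay between 14.06 and 14.59 on the exposed arrays (median 14.43) and between 13.67 and 14.30 on the control arrays (median 14.09), with 8 exposed arrays above every control (log2 FC = 0.33 ± 0.073, adjusted p = 0.0059). Slc7a11, which imports cystine for glutathione, rose (log2 FC = 0.56 ± 0.15, adjusted p = 0.0211), with 0.23 under normexp and 0.89 and 0.24 for its 2 probes. Gstp1, a glutathione transferase whose family holds close paralogs, fell (log2 FC = -0.33 ± 0.075, adjusted p = 0.00727). Of 36 genes of metallothioneins, zinc and iron 7 rose and 1 fell (22.2%), and Slc40a1, the iron exporter ferroportin, was added by pooling (log2 FC = 0.28 ± 0.061, adjusted p = 0.00622). With its brightest probe the call of Slc40a1 was lost.

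None of 76 ribosomal protein genes and none of 43 genes of the unfolded protein response passed, 1 of 76 respiratory chain genes fell (1.32%) and 2 of 46 interferon-stimulated genes rose (4.35%), against 6.46% of all genes. Of 55 collagen and matrix genes 4 rose and 1 fell (9.09%), none of these 5 by pooling alone. Shares above that of all genes came from 24 acute-phase genes, of which 10 rose and 2 fell (50%), and 23 glucocorticoid-induced genes, of which 3 rose and 5 fell (34.8%). Of 41 heat shock genes 4 fell (9.76%), and of 33 p53 and senescence genes 2 rose and 2 fell (12.1%). Orm1, an acute-phase glycoprotein, had the largest pooled effect (log2 FC = 3.59 ± 0.38, adjusted p = 3.53e-06) and passed on both days. With normexp its log2 FC was 2.26, below the 2.80 of Retnla. Scn10a, a sodium channel, was well above background on 11 exposed and 2 control arrays, and its log2 FC was 3.15, and 1.01 with normexp. Retnla, a marker of alternatively activated macrophages, also rose (FC = 7.62). The 3 largest falls were Zbtb16, a transcription factor induced by glucocorticoids (log2 FC = -2.12 ± 0.36, adjusted p = 0.000665), Scd, and Zp1, an egg-coat protein (log2 FC = -1.44 ± 0.42, adjusted p = 0.04), whose call was lost with normexp and in 16 of 23 cases of leaving out 1 array.

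Pooling also hid effects. In all, 103 genes passed on a day and not pooled, 77 on D0 alone, 24 on D28 alone and 2 on both. Of 24 clock genes, 4 rose and 1 fell in the pooled comparison (20.8%, against 6.46% of all genes). A test of D28 against D0 effects passed 7 genes after adjustment (0.0304% of the genes tested) and 3.44% without it. None of the 780 passed it, even unadjusted, which the choice of these genes on the same arrays largely fixes. Clock genes made up most of the 7. Dbp, a clock output factor, differed by 3.91 on the log2 scale, with effects of -1.16 ± 0.35 on D0 (adjusted p = 0.0843) and 2.75 ± 0.33 on D28 (adjusted p = 0.000284). Nr1d1, the clock repressor Rev-erb alpha, had effects of -2.50 ± 0.37 on D0 (adjusted p = 0.000626) and 2.0 ± 0.36 on D28 (adjusted p = 0.00622), and its pooled log2 FC was -0.14 ± 0.54 (adjusted p = 0.949). Nr1d2, its relative Rev-erb beta, had effects of -0.70 on D0 and 1.11 on D28 (difference 1.80 ± 0.29, adjusted p = 0.0126). Cry1, which represses the clock in the opposite phase, had effects of 0.81 on D0 and -0.87 on D28 (difference -1.67 ± 0.19, adjusted p = 0.000233). The controls of the 2 days themselves differed in these genes: Dbp averaged 13.9 ± 0.31 (SD, n = 6) in controls on D0 and 9.74 ± 0.33 (SD, n = 6) in those on D28. The time of day at necropsy was not analysed here.

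**Figure D5:**
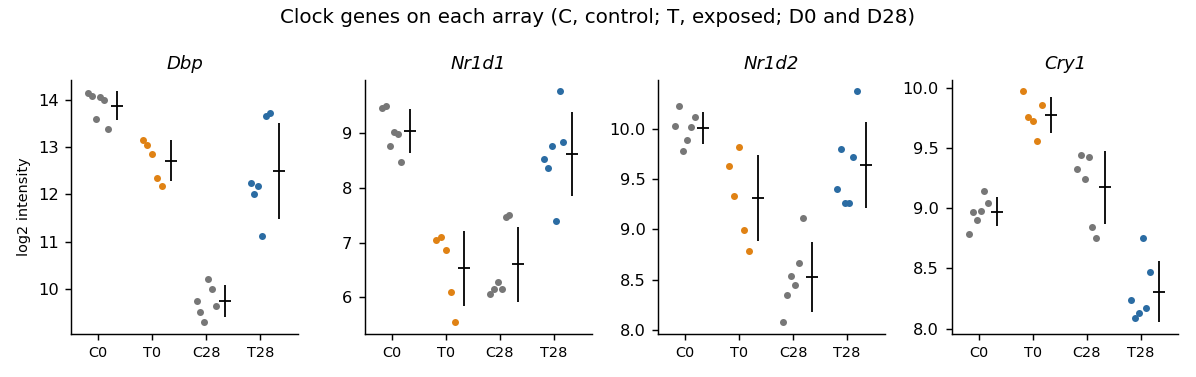
Quantile-normalised log2 intensity on each array for 4 clock genes, with the mean and SD of each group as a black bar (6 controls and 5 exposed rats on D0, 6 and 6 on D28). For Dbp, Nr1d1 and Nr1d2 the exposed rats average below the controls on D0 and above them on D28, and for Cry1 the reverse, and none of the 4 passed in the pooled comparison.

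Rasd2, a small GTPase (-0.48 on D0 and 1.49 on D28), and Grin2c, an NMDA receptor subunit (-0.24 on D0 and 0.58 on D28), changed sign like Dbp, and Prss30, a serine protease, kept its sign with a larger effect on D0 (2.56 on D0 and 1.01 on D28). Prss30 had all 11 exposed arrays above all 12 controls (log2 FC = 1.75 ± 0.21, adjusted p = 1.99e-05), so its average hides a difference in size.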

How the data were processed

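The authors hybridised lung RNA of each rat to single-colour Agilent oligonucleotide arrays and deposited the scanner output, with background-subtracted spot intensity from Agilent Feature Extraction 11.0.1.1 per the file headers, and a table of all arrays with processed values, which was taken to log2 here as an alternative. Starting from the deposited processed intensity of non-control spots, values were log2-transformed and quantile normalised. A probe was used where 5 or more arrays exceeded the negative controls' 95th percentile, named through the gene column of 1 array file, and averaged per gene, which left 40422 probes and 23032 genes. Symbols are those of the array design and can be old.

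The pooled effect came from limma 3.58.1 in R 4.3.3 with necropsy day as a covariate. The effects on each day and their difference came from a fit of the 4 groups. P-values were adjusted over all genes by Benjamini-Hochberg, at 0.05, and DEGs also needed a FC of 1.5. Each array is 1 rat, and the number of arrays limits the precision.

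Named genes were, among named genes called by pooling alone, with 1 direction on both days and well above background on all arrays, the 10 largest rises and falls, the 5 of each with the smallest p and the 3 of each of smallest size, then up to 4 called members of each list and the 3 largest rises and falls of the pooled comparison. Further members named by symbol were all called members of a list. Some genes that met these rules are not reported here. The members and lists were chosen with earlier results of these data known. Some genes stand in more than 1 list, among them Hmox1, Itgax, Cd63, Cd68, Lgmn and Ctss. Counts of different lists are therefore not independent. The scripts were tested on simulated data. Alternatives changed the scaling, background correction, probe filter, probe summary, variance estimate, weights, slide block, replicate block and the arrays included. Promoters are the 300-base RefSeq windows of GRCr8.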

Additional observations from a re-analysis of the deposited data

Results flagged for a closer look

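For 118 named genes, the highest or lowest array of each of the 4 groups was compared with the rest of its group, and in 33 of 472 groups of values (6.99%) it lay far from the others on the log2 intensity scale. Chance marks about 1 in 20 such groups. D28 exposed replicate 4 accounted for 7 of them, D0 exposed replicate 4 for 6 and D0 control replicate 6 for 5. No explanation was tested.

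D28 exposed replicate 4 was high for Cxcl2 (11.33), Tlr2 (11.28), Itih3 (5.8), Cyp51 (11.96), Sqle (11.43), Mvd (10.74) and Scd (14.51). The other high values of exposed D28 arrays were Vsig4 (8.94) and Arg1 (12.25) in replicate 5 and Glb1 (11.78) in replicate 2, and Elovl4 (1.68) was low in replicate 3. D0 exposed replicate 4 was high for C1qa (12.56) and low for Cxcl2 (9.19), Popdc3 (3.32), Mapk8ip1 (11.65), Elovl4 (1.78) and Apln (12.26). D0 exposed replicate 5 was low for Arsb (11.72) and Serping1 (13.87), and replicate 1 was high for Itgam (9.04).

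D0 control replicate 6 was low for Idi1 (10.12), Cyp51 (10.24), Sqle (10.01) and Rasd2 (9.14) and high for Glb1 (11.61). Other D0 controls were high for Popdc3 (6.33), Mapk8ip1 (12.1) and Itih3 (5.37) and low for Ciita (8.05). Among D28 controls, replicate 4 was high for Cdc6 (5.22) and Hmgn1 (14.62) and low for Pdpn (12.69), and replicate 2 was high for C1qa (11.65).

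The effect on D28 minus that on D0 passed the adjusted threshold of limma for 7 genes. It was 4.49 for Nr1d1, 3.91 for Dbp, 1.97 for Rasd2, 1.80 for Nr1d2, 0.81 for Grin2c, -1.67 for Cry1 and -1.55 for Prss30, on the log2 scale.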

How the results depend on the processing

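The pooled comparison passed 1488 genes and gave 411 DEGs, 780 genes were seen by pooling alone, and D0, D28 and the difference between them passed 659, 303 and 7. Slides as a fixed block moved the pooled, D0 and D28 counts to 2354, 1235 and 636, and slides as a random block moved them to 2316, 1178 and 637 and the difference to 16. Normexp background correction gave 136 DEGs and 16 differences, and the deposited table gave 186 DEGs. A trended, robust variance estimate gave 12 differences, array weights 1374 genes on D0, a fit of D28 alone 45 genes, an unadjusted p of 0.05 4022 pooled genes, and a FC of 1.5 required in every fit 116 genes by pooling alone. With 75th percentile scaling D28 passed 185 over-expressed and 190 under-expressed genes, against 180 and 123. The causes were not tested.

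A replicate block within each day left 811 pooled genes, 267 of the 780 among them, and 203 and 59 genes on D0 and D28. Of 11 pairs of arrays with the same number, 3 had deviations that correlated above 0.1 (median -0.122). These 3 were all of D28 (0.262, 0.359 and 0.455). Such correlations cannot settle whether the numbers pair the rats. Among named genes, the replicate block ended the calls of C1qa, C2, Serping1, Cyp51, Sqle, Flt1, Napsa and Akap5 and of others. It kept those of Spef2, Sntn and Cdh5 and of others.

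Leaving out 1 array at a time gave 1281 to 1552 pooled genes, 378 to 435 DEGs, 686 to 863 by pooling alone, 454 to 729 on D0, 148 to 389 on D28 and 6 to 11 differences. The D28 count was 148 without exposed replicate 1, 181 without exposed replicate 6 and 193 without control replicate 5, and the 11 differences came without D28 exposed replicate 4. Without the control read with other software, 1537 genes passed and 823 did so by pooling alone. Of 147 named genes none reversed under any alternative, and 119 kept their call whichever array was left out, though many of these lost it with the replicate block. With normexp the log2 FC of Itgax, Icos and Gpam were 0.33, 0.24 and 0.19, past the threshold.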
